A study of Mus musculus with 96 samples.

Results

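The mRNA levels of 32 lysosomal genes were examined in hepatocytes and liver macrophages of mice that lacked hepatocyte Nr1d1 and Nr1d2 by label, alone or together with Scap. The 32 genes were chosen by name from 25095 gene symbols and stand for the enzymes, membrane proteins and lipid transporters of the lysosome plus the transcription factor Tfeb, with each gene represented by its transcript of highest mean. RNA was sequenced from 96 libraries of male C57BL/6J mice in 4 tables, with 12 libraries for each genotype and cell type (3 at each of ZT4, ZT10, ZT16 and ZT22, where ZT counts hours after lights on and lights went off at ZT12). All groups shared a 4 week diet high in fat and sucrose and an intravenous adeno-associated virus given to adult mice. Control mice received a virus for GFP and the other groups a virus for Cre, in both cases under the TBG promoter, which is active in hepatocytes, so that the macrophages of every genotype were not themselves the cells targeted. The comparison groups were Control, RevDKO (floxed Nr1d1 and Nr1d2, which encode REV-ERBα and REV-ERBβ, repressors of the circadian clock), RevScapTKO (the same with floxed Scap, whose product escorts the SREBP factors that switch on sterol and fatty acid synthesis) and ScapKO (Scap alone). For the ScapKO hepatocyte libraries the titles named hepatocytes and the cell type field named liver macrophages. The titles were followed, and hepatocyte markers were abundant there.

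The lysosome is an acidic compartment that breaks down proteins, glycans and lipids delivered by endocytosis and autophagy. In hepatocytes it clears lipoproteins, receptors and lipid droplets, and in macrophages it digests phagocytosed material. Its proteases are the cathepsins, its glycosidases and sphingolipid hydrolases remove sugars and ceramide-linked lipids one step at a time, and LIPA, NPC1 and NPC2 release and export cholesterol from lipoprotein cholesteryl esters. Many of these genes share an E-box, CACGTG, within their promoters, and TFEB and related factors of the MiT/TFE family are known to bind E-boxes extended by T and A on the outer sides (TCACGTGA).

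Both motifs were searched on both strands, which for these palindromes is the same search, in the 250 bases before the transcription start as listed by RefSeq for GRCm38.p6. Promoters were found for 28 of the 32 genes. CACGTG was present in 8 of these 28 genes (28.6%), as against 6.86% of 27025 symbols with a promoter. TCACGTGA, which contains CACGTG, was present in 4 of 28 (14.3%, Ctsa, Ctsd, Gla and Mcoln1), as against 0.907%. The windows are shown 5′ to 3′ on the strand of the gene, with CACGTG in capitals, because they hold Glb1, Ctsl, Ctsf and Mcoln1, members whose levels differed between genotypes in the results that follow, beside the other carriers of the motif. A match describes the letters only. Members without it, such as Hexa and Neu1, differed too, and whether carriers differed more often was not tested.
Glb1, chr9:114401008-114401057, plus strand: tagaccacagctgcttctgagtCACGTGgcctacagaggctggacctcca
Ctsl, chr13:64370729-64370770, minus strand: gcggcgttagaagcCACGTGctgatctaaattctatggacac
Ctsf, chr19:4855064-4855113, plus strand: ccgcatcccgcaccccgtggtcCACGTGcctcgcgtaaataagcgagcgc
Ctsa, chr2:164833739-164833772, plus strand: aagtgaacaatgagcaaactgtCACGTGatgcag
Ctsd, chr7:142387898-142387947, minus strand: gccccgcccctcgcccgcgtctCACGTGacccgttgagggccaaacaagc
Gla, chrX:134601172-134601254, minus strand: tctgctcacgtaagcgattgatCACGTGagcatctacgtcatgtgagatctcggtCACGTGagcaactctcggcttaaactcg
Mcoln1, chr8:3500426-3500501, plus strand: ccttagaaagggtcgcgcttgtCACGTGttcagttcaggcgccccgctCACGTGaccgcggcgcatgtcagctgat
Lamp1, chr8:13159078-13159160, plus strand: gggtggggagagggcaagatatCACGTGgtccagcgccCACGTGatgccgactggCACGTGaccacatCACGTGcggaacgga
Lamp1, the major glycoprotein of the lysosomal membrane, had 4 copies in 83 bases, and Gla (alpha-galactosidase) and Mcoln1 (the TRPML1 calcium channel) had 2 each. Ctsd also had 2, of which 1 lies in the window shown. The expression tables refer to build mm9, and no position was carried from one build to the other.

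Levels are given in RPKTM, the authors' length-scaled read values, equal to 10 times an RPKM, after quantile normalization. Normalization had been done within each of the 4 tables, so levels are compared only inside a table, and the read depth of single libraries is unknown. Differences are on the log2(RPKTM + 1) scale, where changes of low genes come out smaller than in level, and are averages over the 4 time points with the standard error (SE). Adjusted p-values come from limma over all genes tested. A gene was tested where at least 3 libraries of a table exceeded 5 RPKTM. All 32 members passed in the hepatocyte table of 3 genotypes (13326 genes tested) and 31 passed in the macrophage table (13947 genes), where Ctsk, cathepsin K of bone-resorbing cells, stayed below the limit. The replicates were labelled as separate samples without naming animals, so p-values measure the spread between these samples.

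Scap was lower in RevScapTKO than in RevDKO hepatocytes by the test (log2 difference -1.40, SE 0.14, adjusted p = 9.77e-09), in the direction of the label. Nr1d1 was higher rather than lower in the libraries labelled RevDKO than in Control hepatocytes (1.55, SE 0.25, adjusted p = 8.87e-05), and Nr1d2 differed by 0.62 (SE 0.19, adjusted p = 0.0626). In RevScapTKO against Control hepatocytes both were higher, Nr1d1 by 1.79 (adjusted p = 2.13e-06) and Nr1d2 by 0.95 (adjusted p = 0.000318). Reads outside the floxed exons would still be counted, so these gene totals do not check the deletion. The RevDKO and RevScapTKO directions below therefore rest on the labels. All 13 macrophage markers were detected in the hepatocyte table, their summed level ranged from 255 to 3279 RPKTM in Control (median 924), from 417 to 2538 in the libraries labelled RevDKO (median 1130) and from 980 to 6685 in RevScapTKO (median 3002), and Fcgr1 alone was at 0 in 1 Control library. Stellate cell markers (medians 931, 1245 and 2817) and endothelial markers (medians 1649, 2122 and 3191) had the same order. Among the 36 macrophage libraries of Control, RevDKO and RevScapTKO, 3 stood apart with Alb, the albumin gene, among their 2 highest genes (Control ZT16 replicate 1, Control ZT22 replicate 1 and RevScapTKO ZT22 replicate 3), and the counts and calls there are given with and without them. In the other libraries of these macrophages Alb ranked from 5 to 9, so leaving out the 3 does not remove hepatocyte RNA. In the separate macrophage table of ScapKO, ZT4 replicate 2 and ZT22 replicate 2 also had Alb as the second highest gene. In such bulk samples, fewer cells of a type and less RNA per cell cannot be told apart.

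The order of the members, compared in RPKTM and so per transcript length, differed between the cell types. In Control hepatocytes the highest medians were those of Psap at 1878 RPKTM, Lamp2 at 1830, Lamp1 at 1688, Ctsl at 1658 and Ctsb at 1332. Psap encodes the precursor of the saposins, the cofactors of sphingolipid hydrolysis, and Ctsb and Ctsl encode cysteine proteases. The libraries of these 5 genes overlapped in Control (Psap 1433 to 2412, Ctsl 1281 to 2112), so their order within the top 5 is not resolved. In Control macrophages Ctsb came first at a median of 3704 RPKTM, followed by Psap at 2260 and Ctsd, the main aspartic protease of the lysosome, at 1713. Ctss, cathepsin S, which trims the invariant chain for antigen presentation, stood 27th in Control hepatocytes (median 67.5 RPKTM) and 4th in Control macrophages (median 1247 RPKTM). The lowest members in hepatocytes by their mean over the table were Ctsk, Cd63 and Tfeb. Members together took 0.160 to 0.342% of the summed level of a hepatocyte library and 0.136 to 0.509% of a macrophage library.

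**Figure D1:**
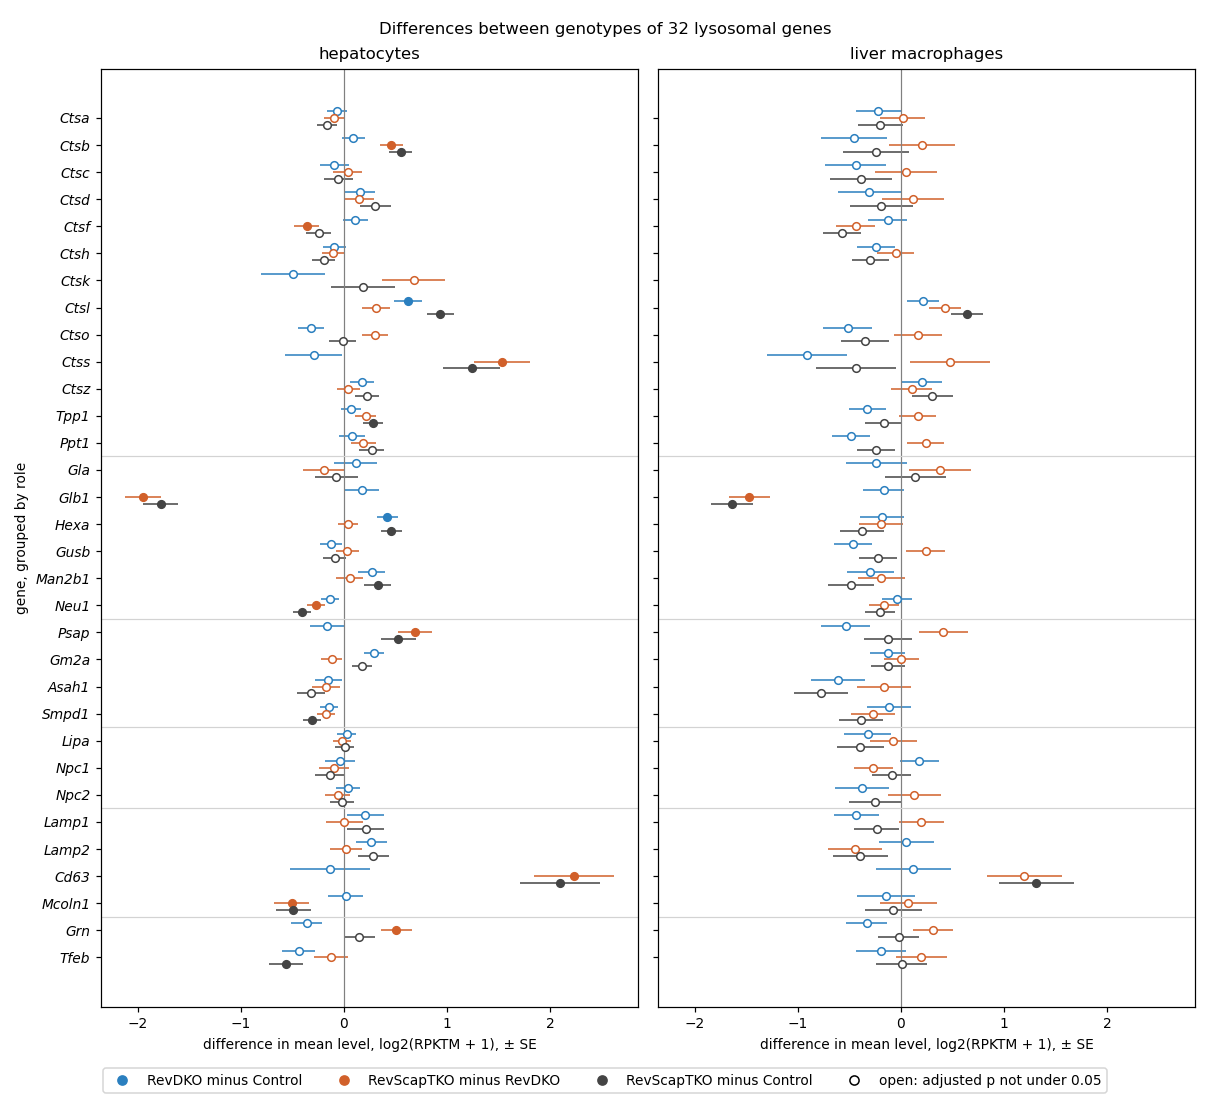
Differences in mean level of the lysosomal genes on the log2(RPKTM + 1) scale, with bars of 1 SE, for 3 comparisons in hepatocytes and in liver macrophages, grouped by role (Ctsk was not tested in macrophages). Filled points passed limma at an adjusted p below 0.05. Glb1 lies far to the left in both RevScapTKO comparisons of both cell types, at -1.95 against RevDKO in hepatocytes and -1.47 in macrophages.

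Loss of hepatocyte REV-ERBs by label was addressed by comparing RevDKO with Control. In hepatocytes 2 of the 32 members rose and none fell, where 4.43% of all genes tested were called, 2.0% higher and 2.43% lower. Both are enzymes of breakdown, Ctsl among the cathepsins (1 of 11 called) and Hexa among the glycosidases (1 of 6), and none of the 4 sphingolipid genes, 3 cholesterol genes or 4 membrane genes was called. The median difference was 0.02 over the members and -0.01 over all genes. At the looser limit of an unadjusted p below 0.05 there were 7 members, with no share of all genes given at that limit.

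Ctsl had 1281, 1658 and 2112 RPKTM as lowest, median and highest value in Control hepatocytes and 2201, 2502 and 3037 in RevDKO. All 12 RevDKO libraries lay above every Control library, which was the case, in either direction, for 0.360% of the genes tested. The difference was 0.62 (SE 0.13, adjusted p = 0.00318). Ctsl was read from transcript NM_009984 on the minus strand of chromosome 13, from 64463198 to 64471828 of mm9. Hexa encodes the alpha subunit of beta-hexosaminidase A, which removes a sugar from GM2 ganglioside. It had 95.6, 144 and 198 RPKTM in Control and 141, 200.1 and 236 in RevDKO. The groups overlapped, and 6 of 12 RevDKO libraries were above the highest Control library. The difference was 0.42 (SE 0.10, adjusted p = 0.00974). Adding the mean log2 level of the 13 macrophage markers to the model left both calls in place (Ctsl 0.60, Hexa 0.41), and Grn was then called lower as well at -0.39 (adjusted p = 0.0323), with 5.31% of all genes called. Grn encodes progranulin, a lysosomal glycoprotein also secreted by macrophages, and differed by -0.36 (adjusted p = 0.198) without that term.

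Other lysosomal hydrolases and membrane proteins that were not members gave 3 calls of 35 genes, all higher in RevDKO. Arsa, arylsulfatase A, which removes sulfate from sulfatides, ranged from 174 to 320 RPKTM as against 82.2 to 189 in Control (0.98, adjusted p = 1.68e-05). The ranges of Arsa overlapped, with 10 of 12 RevDKO libraries above the highest Control library. None of the 16 proton pump genes, 7 genes of enzyme sorting, 8 MiT/TFE factors and regulators or 2 tested cathepsin inhibitors was called.

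**Figure D2:**
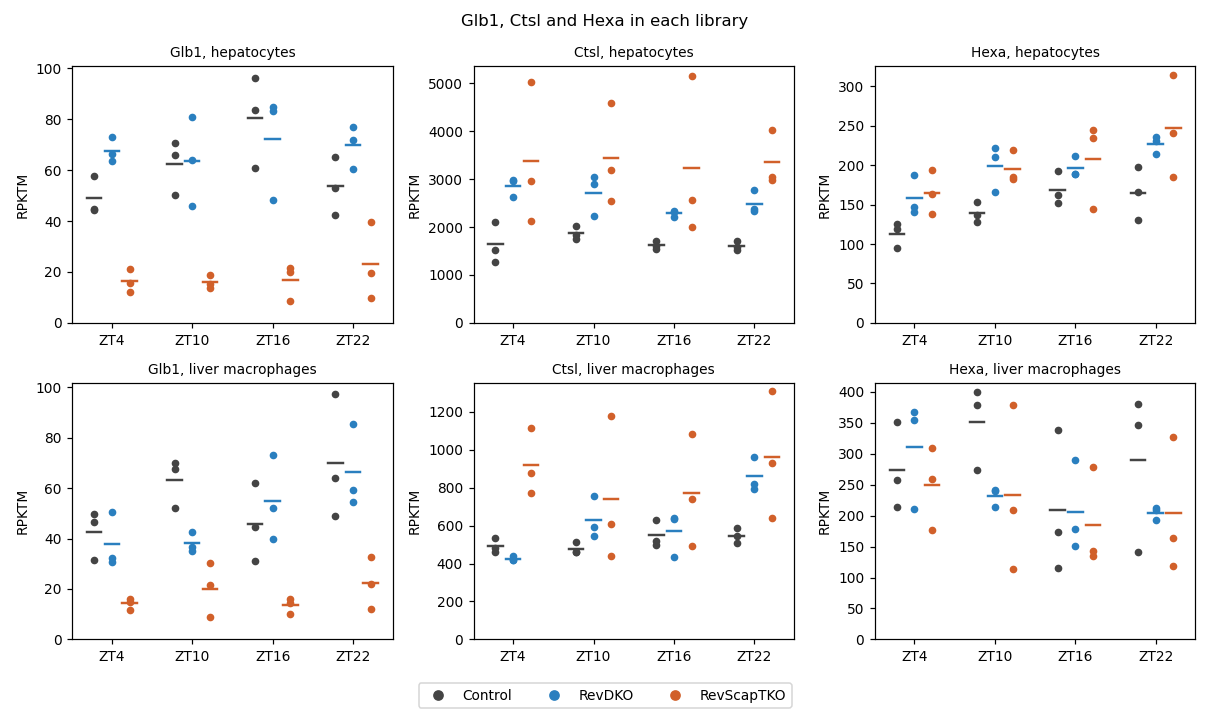
Levels of Glb1, Ctsl and Hexa in RPKTM in each library at ZT4, ZT10, ZT16 and ZT22, by genotype, for hepatocytes (upper row) and liver macrophages (lower row), with a line at the mean of 3 libraries. In hepatocytes all 12 RevScapTKO libraries sit below the others for Glb1, and all 12 RevDKO libraries sit above the Control libraries for Ctsl.

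Deletion of Scap on top of the REV-ERB genes was addressed by RevScapTKO against RevDKO. In hepatocytes 5 members rose (Cd63, Ctss, Psap, Grn and Ctsb) and 4 fell (Glb1, Mcoln1, Ctsf and Neu1), where 26.2% of all genes tested were called, 13.5% higher and 12.7% lower. The median difference was 0.03 over the members and -0.03 over all genes. Against Control, whose comparison shares the RevScapTKO libraries, 8 members rose and 5 fell, where 35.9% of all genes were called (17.3% higher and 18.7% lower), with medians of 0.08 and -0.04.

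Glb1 had the largest fall of the 32 members in both comparisons. It encodes the lysosomal beta-galactosidase that acts on GM1 ganglioside and keratan sulfate. Its levels were 42.4, 59.3 and 96.4 RPKTM (lowest, median, highest) in Control hepatocytes, 45.8, 69.1 and 84.7 in RevDKO, and 8.50, 17.2 and 39.5 in RevScapTKO. The RevScapTKO range overlapped neither of the other groups. It was lower than RevDKO by -1.95 (SE 0.17, adjusted p = 3.06e-10) and than Control by -1.77 (SE 0.17, adjusted p = 1.67e-09), and ranges without overlap were found for 0.758% and 0.991% of the genes tested. RevDKO and Control differed by 0.17 (SE 0.17, adjusted p = 0.680). With the macrophage marker term the falls were -2.19 (adjusted p = 4.14e-08) and -2.04 (adjusted p = 2.63e-07), and both were called in each of the 24 fits that left out 1 library. Glb1 also had a negative correlation with the macrophage marker level across the 36 hepatocyte libraries (Pearson r = -0.370, a description over libraries that share genotypes).

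The Glb1 value belongs to transcript NM_009752 on the plus strand of chromosome 9, from 114310196 to 114383497 of mm9. The other 2 listed transcripts, NR_108101 and NR_108102, had medians of 17.1 and 16.9 RPKTM in RevScapTKO and 64.7 and 64.2 in RevDKO hepatocytes, close to those of NM_009752. Tmppe, which overlaps Glb1 by 10107 bases on the same strand, differed by -0.24 between RevScapTKO and RevDKO (adjusted p = 0.123). Scap lies on the same chromosome, from 110235792 to 110287453, which was noticed after the values were seen. The 4022742 bases between the genes held 21 tested genes, of which 3 were higher and 3 lower in RevScapTKO than in RevDKO hepatocytes (28.6%, as against 29.5% of the 725 tested genes of chromosome 9). Whether the place of Glb1 near Scap bears on its fall was not tested.

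In liver macrophages, Glb1 had 30.9, 50.9 and 97.3 RPKTM in Control, 30.5, 46.6 and 85.5 in RevDKO, and 8.89, 15.4 and 32.6 in RevScapTKO. Here 11 of 12 RevScapTKO libraries were below the lowest library of either other group. It was the only member called in RevScapTKO against RevDKO (-1.47, SE 0.20, adjusted p = 7.82e-06), where 3.0% of all genes were called, 1.23% higher and 1.78% lower. Without the libraries with high Alb the value was -1.38, and with the mean hepatocyte marker level as a term the call remained. Scap itself differed by -0.54 (SE 0.20, adjusted p = 0.127) in these macrophages. Hepatocyte markers were present in all macrophage libraries, with median sums of 95088 RPKTM for Control, 79748 for RevDKO and 96939 for RevScapTKO, and their part in the Glb1 result was not tested beyond that term. In the tables of ScapKO alone Glb1 had 14.3, 35.6 and 48.4 RPKTM in hepatocytes and 53.3, 124 and 142 in macrophages, and these levels cannot be set against the other genotypes. By median it stood 28th of 32 members in Control hepatocytes, 29th in RevScapTKO and 30th in ScapKO hepatocytes.

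The 5 members that rose in RevScapTKO against RevDKO hepatocytes include the genes that followed the macrophage markers most closely. Ctss had 14.6, 67.5 and 237 RPKTM in Control libraries, 22.3, 61.2 and 147 in RevDKO and 63.2, 230.2 and 534 in RevScapTKO. The groups overlapped, with 7 of 12 RevScapTKO libraries above the highest RevDKO library. The difference was 1.54 (SE 0.27, adjusted p = 0.000131) and its correlation with the macrophage marker level over 36 hepatocyte libraries was r = 0.944. Psap had 608, 1953 and 2457 RPKTM in RevDKO and 1911, 2562 and 3986 in RevScapTKO (0.69, adjusted p = 0.00252, r = 0.754). Ctsb had 1059, 1398 and 2340 in RevDKO and 1292, 1994 and 3205 in RevScapTKO (0.46, adjusted p = 0.00296, r = 0.885). Ctsb overlaps Fdft1, a gene of sterol synthesis on the opposite strand, by 773 bases. Fdft1 moved the other way, lower in RevScapTKO than in RevDKO hepatocytes (-2.33, limma adjusted p = 1.33e-13). The sources used here do not state whether counting used the strand, so the Ctsb level is uncertain to that extent. Grn had 302, 504 and 805 in RevDKO and 424, 729 and 1211 in RevScapTKO (0.51, adjusted p = 0.0122, r = 0.788). With the macrophage marker term the differences were 0.28 for Ctss, 0.15 for Psap, 0.12 for Ctsb and -0.03 for Grn, and none of the 4 was called. All 13 markers were themselves called higher in RevScapTKO than in RevDKO hepatocytes by limma, so marker level and genotype cannot be told apart here. The correlations pool genotypes and times and so hold the same difference. Under the marker term 2 members were called, Glb1 and Asah1 (acid ceramidase, -0.60, adjusted p = 0.0195), both lower, with 2.62% of all genes called. Without the term Asah1 was not called, and its medians were 127 RPKTM in RevDKO and 130 in RevScapTKO.

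Cd63, a tetraspanin of late endosomes, was the member with the largest rise and lay near the lower end of the levels. It had 0.173, 0.726 and 7.15 RPKTM in RevDKO and 1.04, 9.20 and 38.9 in RevScapTKO, with 8 of 12 RevScapTKO libraries above the highest RevDKO library. The difference was 2.23 (SE 0.39, adjusted p = 9.63e-05), and with the macrophage marker term 1.57 (adjusted p = 0.118), at r = 0.497 with the markers. A processed copy of Cd63 in the genome can share its reads, so this level is uncertain.

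**Figure D3:**
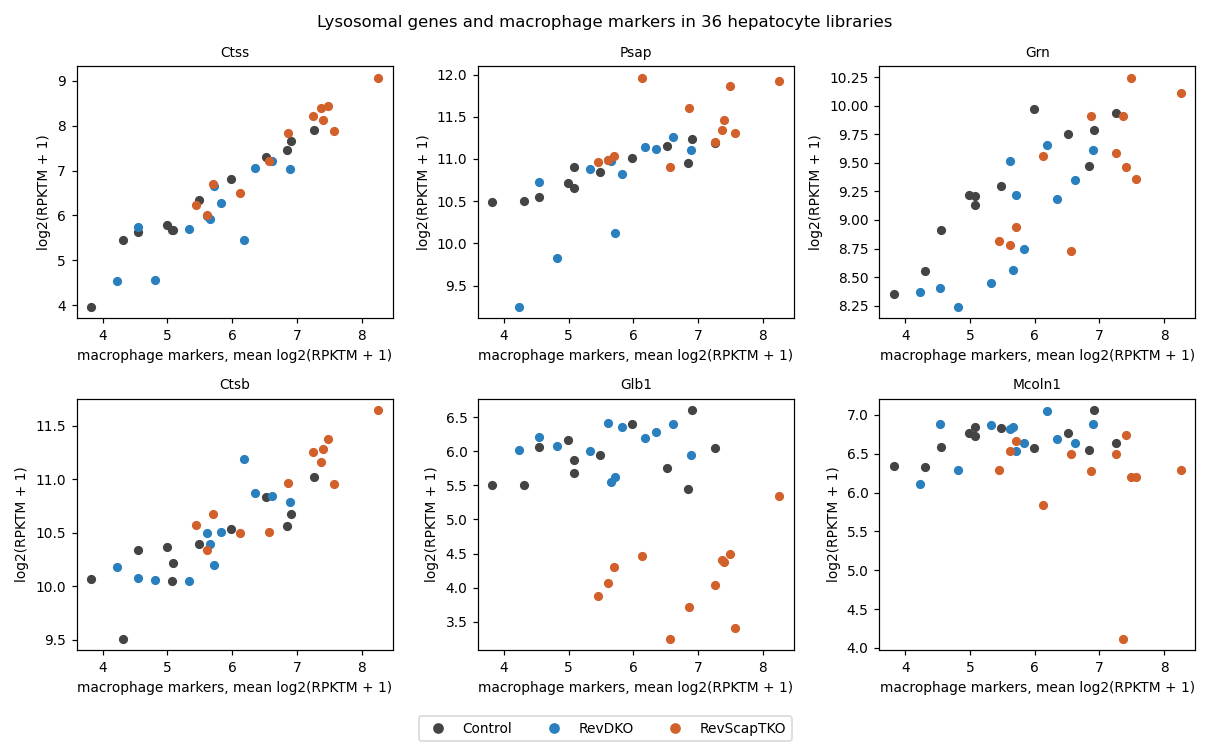
Levels of Ctss, Psap, Grn, Ctsb, Glb1 and Mcoln1 on the log2(RPKTM + 1) scale against the mean of 13 macrophage markers on the same scale in 36 hepatocyte libraries, coloured by genotype. Ctss follows the markers (r = 0.944) and Glb1 does not rise with them (r = -0.370), with the RevScapTKO libraries lying apart at low Glb1.

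The other 3 members that fell in RevScapTKO against RevDKO had smaller differences. Neu1, sialidase 1, had 91.5, 115 and 154 RPKTM in RevDKO and 73.1, 96.8 and 146 in RevScapTKO (-0.27, SE 0.09, adjusted p = 0.0197). Against Control, with 113, 126 and 167, the Neu1 difference was -0.41 (adjusted p = 0.000481), 10 of 12 RevScapTKO libraries were below every Control library, and it was called with the macrophage marker term too (-0.48, adjusted p = 0.0122). Ctsf, cathepsin F, had 76.7, 102 and 125 in RevDKO and 30.4, 82.2 and 112 in RevScapTKO (-0.36, adjusted p = 0.0282). The Ctsf call was lost without any 1 of 5 libraries of the 24, at adjusted p of at most 0.0630. Mcoln1 had 67.9, 107 and 131 in RevDKO and 16.4, 77.3 and 106 in RevScapTKO (-0.51, adjusted p = 0.0271). One library, RevScapTKO ZT16 replicate 2, held the lowest Mcoln1 value, and without it the Mcoln1 difference was -0.32 (adjusted p = 0.0344). Without RevScapTKO ZT4 replicate 2 the Mcoln1 call was lost (adjusted p = 0.0544), as it was with no filter (0.0529) and with only these 2 genotypes in the fit (0.0641). With the macrophage marker term none of Neu1, Ctsf and Mcoln1 was called in RevScapTKO against RevDKO while the differences were -0.34 for Neu1 (adjusted p = 0.143), -0.45 for Ctsf (adjusted p = 0.203) and -0.55 for Mcoln1 (adjusted p = 0.308).

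Against Control, RevScapTKO hepatocytes were higher in Ctsl, at 2004, 3022 and 5161 RPKTM, with 11 of 12 libraries above the highest Control library (0.94, SE 0.13, adjusted p = 2.98e-06). Between RevScapTKO and RevDKO the Ctsl difference was 0.31 (SE 0.13, adjusted p = 0.0801). Hexa had 138, 189 and 315 RPKTM in RevScapTKO (0.46 against Control, adjusted p = 0.000722). With the macrophage marker term, Ctsl differed from Control by 0.59 (adjusted p = 0.0333) and Hexa by 0.37 (adjusted p = 0.145). Cd63 (2.10), Ctss (1.24), Ctsb (0.55) and Psap (0.53) were also higher than in Control. Man2b1, alpha-mannosidase, differed by 0.33 (adjusted p = 0.0482), a call lost without any 1 of 18 of 24 libraries, and Tpp1, tripeptidyl peptidase 1, which completes the 13 calls, by 0.28 (adjusted p = 0.0239). Smpd1, acid sphingomyelinase, fell from 114, 159 and 234 RPKTM in Control to 79.3, 136 and 160.5 in RevScapTKO (-0.31, adjusted p = 0.00676). Under the macrophage marker term 6 members were called, of which Ctsl was higher and Glb1, Asah1, Ctsc, Neu1 and Ctsa were lower, with 6.10% of all genes called. Asah1, Ctsc and Ctsa were not called without the term. Their medians were 151, 251 and 457 RPKTM in Control and 130, 274 and 420 in RevScapTKO, so Ctsc was not lower by median. All 13 markers were called higher in RevScapTKO than in Control by limma, so marker level and genotype cannot be told apart.

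Tfeb, the transcription factor of the set, was among the lowest members. It had 8.44, 22 and 34.1 RPKTM in Control hepatocytes, 7.60, 15.0 and 27.4 in RevDKO and 10.2, 13.8 and 20.5 in RevScapTKO. The Tfeb groups overlapped throughout. RevScapTKO was lower than Control by -0.56 (SE 0.16, adjusted p = 0.00796), which became -0.68 (adjusted p = 0.0797) with the macrophage marker term. RevDKO differed from Control by -0.44 (adjusted p = 0.137), a Tfeb difference that was called without Control ZT22 replicate 3 (-0.53, adjusted p = 0.0412). Mcoln1, a target of TFEB by textbook knowledge, did not pass in RevDKO against Control (0.02, adjusted p = 0.977) and was lower in RevScapTKO than in Control (-0.49, adjusted p = 0.0248). That Mcoln1 call was lost with no filter (adjusted p = 0.0529), with the macrophage marker term (-0.53, adjusted p = 0.224) and without RevScapTKO ZT4 replicate 2 (adjusted p = 0.0501), and the difference was -0.30 without RevScapTKO ZT16 replicate 2.

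**Figure D4:**
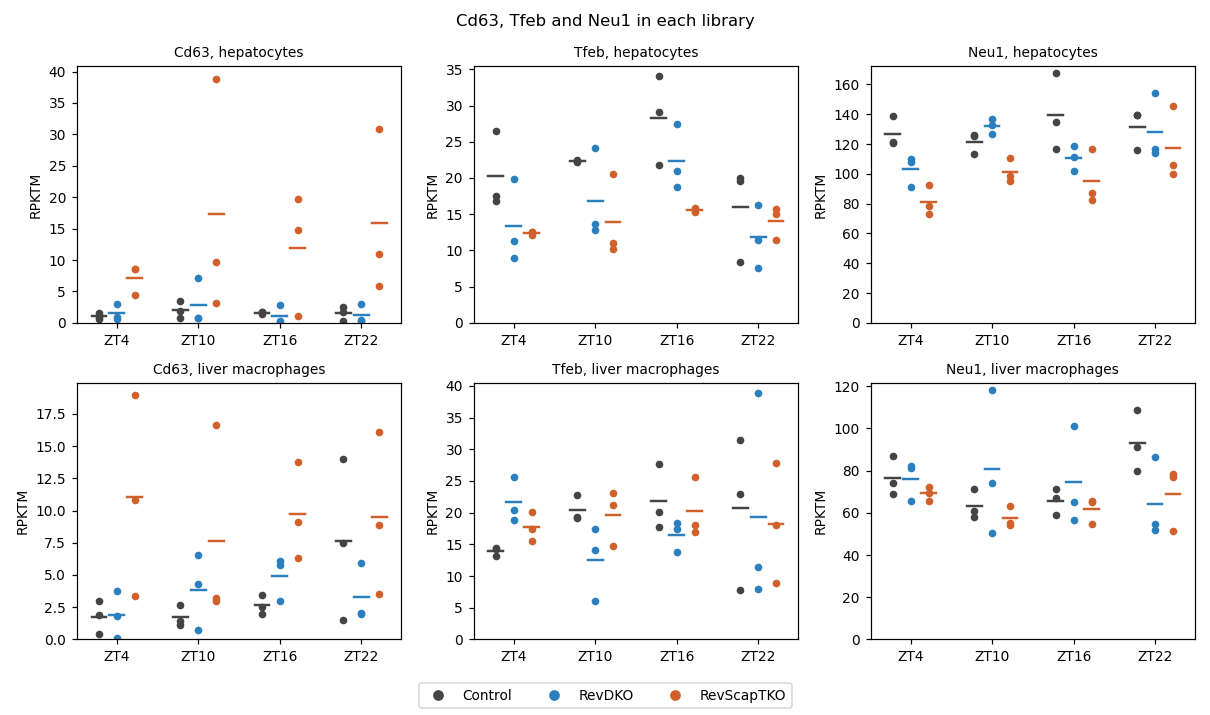
Levels of Cd63, Tfeb and Neu1 in RPKTM in each library at ZT4, ZT10, ZT16 and ZT22, by genotype, for hepatocytes (upper row) and liver macrophages (lower row), with a line at the mean of 3 libraries. In hepatocytes the RevScapTKO libraries reach higher Cd63 values and lower Neu1 values than Control, and the Tfeb groups overlap.

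The cholesterol genes and the abundant membrane proteins did not pass the test in any hepatocyte comparison. Lipa, lysosomal acid lipase, had medians of 916, 912 and 903 RPKTM in Control, RevDKO and RevScapTKO, and its differences were 0.03 for RevDKO against Control, -0.02 for RevScapTKO against RevDKO and 0.01 for RevScapTKO against Control, each with an SE of 0.09. Npc1 had medians of 811, 720 and 763 RPKTM with differences of -0.04, -0.10 and -0.14 (SE 0.15), and Npc2 medians of 115, 118 and 118. Lamp1 had medians of 1688, 2010 and 2233. One RevScapTKO library, again ZT16 replicate 2, held only 403 RPKTM of Lamp1, and without it the Lamp1 difference from Control was 0.42 (adjusted p = 0.00163) in place of 0.21 (adjusted p = 0.371). Ctsd had medians of 1098, 1352 and 1408 RPKTM and differed from Control by 0.31 (SE 0.15, adjusted p = 0.10) in RevScapTKO, a Ctsd call gained without Control ZT4 replicate 2 (adjusted p = 0.0391) or RevScapTKO ZT4 replicate 1 (adjusted p = 0.0356).

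Lysosomal genes outside the members moved both ways in RevScapTKO hepatocytes. Against RevDKO, 5 of 35 other hydrolases and membrane proteins rose and 3 fell, beside 13.5% and 12.7% of all genes. The 4 with the smallest adjusted p all rose, namely Lgmn, the asparaginyl protease legumain (157 to 740.2 RPKTM as against 97.0 to 275, 0.90), Cd68 (16.7 to 98.2 as against 10.6 to 36, 1.01), Laptm5 (23.4 to 167 as against 11.6 to 64.6, 1.16) and Galns (18 to 101 as against 13.4 to 32, 0.90). Cd68 and Laptm5 are abundant in macrophages by textbook knowledge, and macrophage markers were higher in the same libraries. None of 16 proton pump genes rose and 2 fell, a share close to that of all genes, Atp6v1g1 (7.87 to 36.6 as against 23.2 to 54.3 RPKTM, -0.53) and Atp6v0d2 (0.327 to 5.63 as against 2.20 to 18, -1.14), which encode subunits of the acidifying V-ATPase. Of 7 genes of enzyme sorting, Igf2r, the mannose 6-phosphate receptor, rose (683 to 1778 RPKTM as against 512 to 904, 0.54) with Sort1, sortilin (0.63), and Gnptg fell (-0.34). Of 8 MiT/TFE factors and regulators Rragc fell (-0.24), and of 2 tested cathepsin inhibitors Cstb, cystatin B, rose (0.71).

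Against Control, 8 of the 35 other hydrolases and membrane proteins rose and 5 fell in RevScapTKO hepatocytes, beside 17.3% and 18.7% of all genes. Arsa rose by 1.2 (150 to 587 RPKTM as against 82.2 to 189, adjusted p = 1.42e-07) and Lgmn by 0.87, and Acp5, tartrate-resistant acid phosphatase, fell (-0.53). Of the proton pump genes 4 of 16 fell, Atp6v1g1 (-0.69), Atp6v0c (-0.70), Atp6v0d2 (-1.01) and Atp6v1f (-0.45), and none rose. Of 7 sorting genes Igf2r (0.61) and Gnptab (0.26) rose. Of 8 MiT/TFE factors and regulators Tfec rose (0.72) while Fnip2 (-0.77) and Rragc (-0.23) fell, and of the inhibitors Cstb rose (0.60) and Cst3, cystatin C, fell (-0.44).

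In liver macrophages no member was called in RevDKO against Control by limma, where 0.574% of all genes were called, 0.402% higher and 0.172% lower. At the looser limit of an unadjusted p below 0.05 there were 6 members, with no share of all genes given at that limit. The median difference of the 31 members tested was -0.24, as against -0.04 over all genes. Of these members 26 were below 0, where 6418 of all 13947 genes tested were above 0. The macrophage markers of these libraries moved the same way, with median sums of 18357 RPKTM in Control as against 9428 in RevDKO and 10256 in RevScapTKO, and with their mean log2 level as a term, chosen after seeing the data, the median of the members was 0.00 and none was below an unadjusted p of 0.05. Without the libraries with high Alb the median was -0.17 with 2 such members. Psap had 846, 2260 and 3855 RPKTM in Control macrophages and 781, 1351 and 3170 in RevDKO (-0.54, SE 0.24, adjusted p = 0.310). Ctsd had 581, 1713 and 4479 in Control and 759, 1005 and 4479 in RevDKO (-0.31, SE 0.30, adjusted p = 0.637), so the groups covered each other.

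RevScapTKO macrophages differed from Control in 3 members, where 3.76% of all genes were called, 2.38% higher and 1.38% lower. Glb1 was lower by -1.64 (adjusted p = 8.53e-07), and by -1.50 without the libraries with high Alb. Ctsl had 461, 510.2 and 630 RPKTM in Control macrophages, 421, 614 and 965 in RevDKO and 442, 826 and 1309 in RevScapTKO, with 9 of 12 RevScapTKO libraries above the highest Control library (0.65, SE 0.16, adjusted p = 0.0126, and 0.71 without the libraries with high Alb). Cd63 had 0.392, 2.23 and 14.0 RPKTM in Control and 2.95, 9.01 and 19.0 in RevScapTKO (1.32, SE 0.36, adjusted p = 0.0339). The Cd63 call was lost without the libraries with high Alb and without any 1 of 13 of 24 libraries. Tfeb had medians of 19.2, 17.4 and 18 RPKTM in Control, RevDKO and RevScapTKO macrophages, and Lipa 613, 444 and 464, and neither was called in any macrophage comparison. Of the other lysosomal lists, Arsa was called in RevScapTKO against Control macrophages (0.94, adjusted p = 0.00831, 34.7 to 180 RPKTM as against 26.8 to 94.0), and no other gene of these lists was called in a macrophage comparison. Arsa and Ctsl were also higher in RevScapTKO than in Control hepatocytes. The part of hepatocyte RNA in the Arsa call was not tested, and in the Ctsl call not beyond the hepatocyte marker term. Whether hepatocytes and macrophages differ in any of these responses was not tested, as their tables had been normalized apart.

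Time of day was examined with a 24 h cosine fitted to each genotype, whose amplitude is the peak-to-trough difference on the log2 scale. In Control hepatocytes 6 of 32 members had a rhythm, where 8.29% of all genes did. All 6 peaked in the dark phase. Lipa had means of 685, 791, 1065 and 1225 RPKTM at ZT4, ZT10, ZT16 and ZT22 (SD 172, 70.5, 120 and 100.3, n = 3 each), an amplitude of 0.91, a peak at ZT18.9 and an adjusted p of 0.00503. Ctss had means of 35.9, 51.1, 130 and 189 RPKTM (SD 18.7, 3.14, 61.7 and 42.1), an amplitude of 2.7, a peak at ZT18.9 and an adjusted p of 0.00661. Ctsf had means of 64.2, 89.7, 135 and 97.5 RPKTM (SD 16.1, 4.67, 24.2 and 27.6), an amplitude of 1.08, a peak at ZT16.3 and an adjusted p of 0.0133. For Lipa and Ctss no ZT22 library overlapped those of ZT4, with only 3 libraries at each time. These genes were picked for a called rhythm, and the share of all genes without such overlap was not computed. Gusb, beta-glucuronidase (0.88, peak ZT17.4, adjusted p = 0.0280), and Grn (1.16, peak ZT18.2, adjusted p = 0.0318) followed.

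The macrophage markers in the same Control hepatocyte libraries had median sums of 478, 690, 1595 and 2666 RPKTM at ZT4, ZT10, ZT16 and ZT22. With their mean log2 level as a term, chosen after seeing the data, none of the 6 rhythms was called. The amplitude was then 0.94 for Ctsf (adjusted p = 0.106), 0.70 for Lipa (adjusted p = 0.273) and 0.58 for Gusb (adjusted p = 0.357), as against 1.08, 0.91 and 0.88 without the term. It was 0.35 for Grn (adjusted p = 0.652) and 0.32 for Ctss (adjusted p = 0.848), as against 1.16 and 2.7. The markers and the time of day moved together in these libraries, so their parts cannot be told apart. The calls of Lipa and Ctss held in each of 12 fits that left out 1 Control library, whereas those of Ctsf, Gusb and Grn were lost in 2, 3 and 7 of the 12, at adjusted p of at most 0.0919, 0.0991 and 0.112.

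In RevDKO hepatocytes Grn was the only rhythmic member (amplitude 1.36, peak ZT18.9, adjusted p = 0.0227), where 4.08% of all genes were called, and in RevScapTKO hepatocytes Ctsc, cathepsin C, was the only one (1.39, peak ZT17.4, adjusted p = 0.0343), where 0.683% were. Ctsc had means of 130, 250.4, 307 and 363 RPKTM (SD 48.9, 55.4, 40.3 and 116, n = 3 each) there. The call of Grn was lost without any 1 of 5 of 12 libraries and that of Ctsc without any 1 of 7 of 12. With the macrophage marker term the Ctsc rhythm was called (adjusted p = 0.0413) and the Grn rhythm was not (adjusted p = 0.402). The amplitude of Lipa was 0.30 in RevDKO and 0.24 in RevScapTKO, and that of Ctsf 0.25 and 0.64.

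The difference in rhythm between genotypes was tested directly, and no member was called in any of the 6 comparisons. The shares over all genes were 0.203% for RevDKO against Control, 0.00% for RevScapTKO against RevDKO and 0.188% for RevScapTKO against Control in hepatocytes, and 0.00% for all 3 in macrophages. At an unadjusted p below 0.05, a looser limit for which no share of all genes is given, there were 0, 1 and 2 members in hepatocytes and none in macrophages. In RevDKO against Control hepatocytes the first members by p were Lipa, Ctsf and Npc1 (limma adjusted p of 1.0 for each). In RevScapTKO against Control they were Npc1, Lipa and Ctsc (limma adjusted p of 0.484, 0.662 and 0.770). Npc1 had an amplitude of 0.65 with a fitted peak at ZT11.3 in Control and of 0.76 with a fitted peak at ZT23.6 in RevScapTKO, and neither rhythm was called. In RevScapTKO against RevDKO they were Asah1, Smpd1 and Ctsc (limma adjusted p of 0.944 for each).

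**Figure D5:**
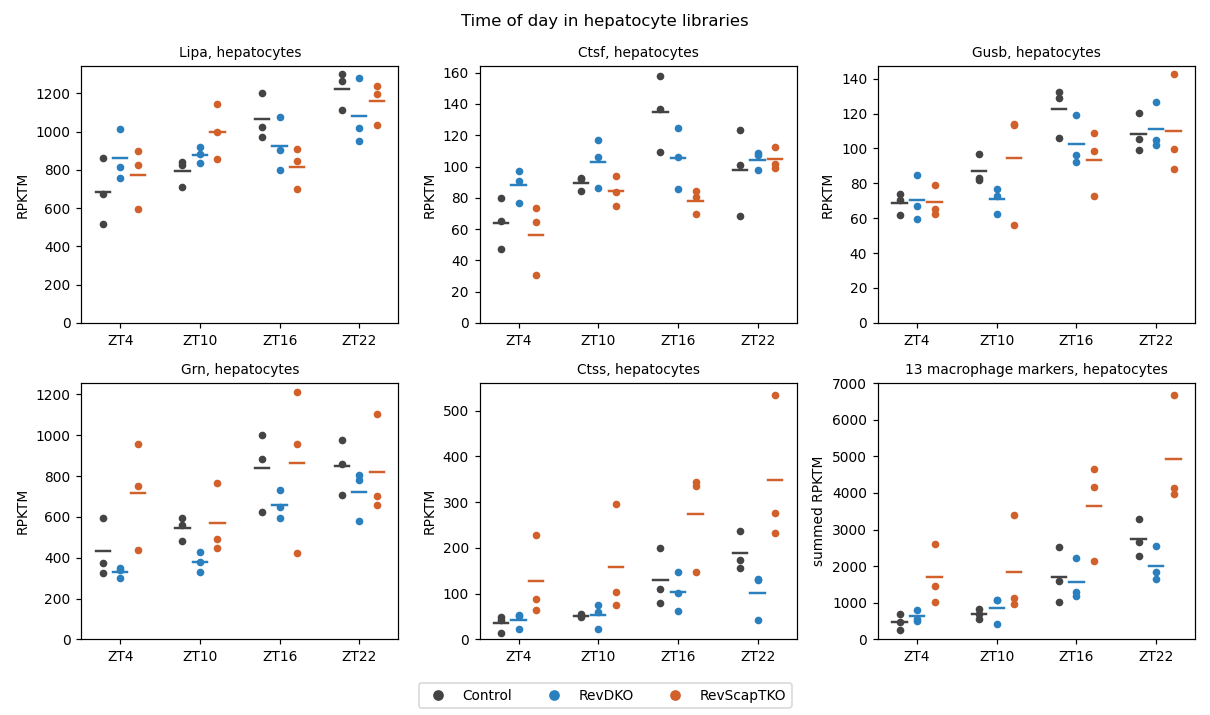
Levels of Lipa, Ctsf, Gusb, Grn and Ctss and the summed level of 13 macrophage markers in RPKTM at ZT4, ZT10, ZT16 and ZT22 in hepatocytes of 3 genotypes, with each library as a point and a line at the mean of 3 libraries. Lipa in Control climbs from a mean of 685 at ZT4 to 1225 at ZT22.

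In liver macrophages no member had a called rhythm in any genotype by limma. In Control, RevDKO and RevScapTKO, 0.0502%, 2.53% and 0.0789% of all genes were called at an adjusted p below 0.05. At the looser limit of an unadjusted p below 0.05 there were 0, 5 and 0 members. Without the libraries with high Alb no member was called either, and 1.63%, 3.18% and 0.272% of all genes were called at an adjusted p below 0.05. At the unadjusted limit there were then 7, 6 and 0 members. No share of all genes is given at the unadjusted limit, so these member counts cannot be set beside the shares called. Ctsa in Control macrophages came nearest to a call without the libraries with high Alb, with an amplitude of 1.7 and a limma adjusted p of 0.0594. With all libraries, the 5 below the unadjusted limit in RevDKO were Ctsb, Ctsc, Ctsa, Smpd1 and Npc1. In the test of a changed rhythm in macrophages the first members by p were Neu1, Psap and Ctso in RevDKO against Control, Npc1, Ctsl and Psap in RevScapTKO against RevDKO, and Mcoln1, Man2b1 and Ctsz in RevScapTKO against Control, with limma adjusted p of 0.891 or more.

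JTK_CYCLE, a rank test for rhythms, was written anew and run with each series entered 2 times, as the study's methods describe. A call here needed an adjusted p below 0.05 and a best period of 24 h out of 18 and 24 h. The highest time-point mean also had to exceed 1.5 times the lowest. Unlike the limma values, this p was adjusted only for the periods and phases tried within a gene, not over all genes. Only genes that passed the filter given above were used, so neither the period range nor the filter was that of the study. The rank test called 9 members in Control hepatocytes (24.6% of all genes), 5 in RevDKO (24.6%), 3 in RevScapTKO (16.1%) and 2 in ScapKO (15.7%). In macrophages it called 4 members in Control (14.7%), 10 in RevDKO (21.6%), 2 in RevScapTKO (11.4%) and 6 in ScapKO (17.5%). With each series entered once it called Ctsf and Gusb in Control hepatocytes (4.28% of all genes), Gusb in ScapKO hepatocytes (2.75%), and no member in RevDKO (3.74%) or RevScapTKO (1.45%) hepatocytes or in Control (0.997%), RevDKO (1.56%), RevScapTKO (0.782%) or ScapKO (2.06%) macrophages.

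ScapKO libraries were described in their own tables. In ScapKO hepatocytes the highest member medians were Lamp2 at 4102 RPKTM, Lamp1 at 3850, Ctsb at 3120 and Psap at 3116, and in ScapKO macrophages Ctsb at 28556, Psap at 19559 and Ctsd at 7655. Lipa was the only rhythmic member of 31 tested in ScapKO hepatocytes (1.85% of all genes). It had means of 1244, 1283, 1630 and 1934 RPKTM at ZT4, ZT10, ZT16 and ZT22 (SD 44.8, 52.3, 57.2 and 216, n = 3 each), an amplitude of 0.70, a peak at ZT19.8 and an adjusted p of 0.0232. Its ZT16 and ZT22 libraries lay above all of ZT4 and ZT10, but the share of all genes with such a split was not computed. The macrophage markers of these libraries had median sums of 935, 1014, 798 and 629 RPKTM at the 4 times. Their highest single library, at 3590 RPKTM, was of ZT22, so the medians do not give the order of the means. Cholangiocyte markers there had median sums of 36.1, 41.6, 72.1 and 124 RPKTM, the same order as the Lipa means. The part of either set of markers in the rhythm was not tested. The Lipa call was lost without any 1 of 8 of 12 libraries, at adjusted p of at most 0.0908. ScapKO hepatocyte libraries ZT22 replicate 1 (summed hepatocyte markers 384549 RPKTM, table median 1164370) and ZT22 replicate 2 (endothelial markers 10565, median 1916) stood apart, and without either one the Lipa rhythm was called (adjusted p = 0.0262 and 0.00979). In ScapKO macrophages none of 32 members had a called rhythm (0.00% of all genes), with Ppt1 and Ctsz below an unadjusted p of 0.05. There ZT22 replicate 2 stood apart, with a macrophage marker sum of 22918 RPKTM as against a median of 122479.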

How the data were processed

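RNA from isolated hepatocytes and liver macrophages was sequenced in 96 libraries. Per the labels and the study's methods, the authors removed ribosomal RNA, made stranded libraries, aligned reads to mm9 with STAR and quantified RefSeq transcripts with HOMER. The 4 deposited tables are named as quantile processed, and in each of them all libraries hold the same set of sorted values. The tool for this step is not given for RNA in the sources used here. Tool versions and the use of strand in counting are not given in the sources used here. The deposited values are RPKTM, that is 10 times an RPKM, so no count test was possible and depth is unknown. Each of 42322 transcripts was reduced to the transcript of highest mean per symbol. Values were transformed as log2(RPKTM + 1) and genes with over 5 RPKTM in at least 3 libraries were kept. Genotype, time of day and their interaction were fitted with limma 3.58.1 (R 4.3.3, moderated variances with a trend, two-sided) on all genotypes of a table. Mean levels were compared over the 4 time points, and rhythms with a 24 h cosine. The limma p-values were adjusted by the Benjamini-Hochberg method over all genes tested, with a threshold of 0.05. Those of JTK_CYCLE, run from code written anew, were adjusted only for the periods and phases tried within a gene. The fits were tested on simulated data. The 2 tables of ScapKO hold no other genotype and gave rhythms only. Promoter motifs were searched in RefSeq sequence of GRCm38.p6. Tables were handled with Python 3.11.15, pandas 2.3.3 and numpy 2.4.6.

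The members, lists and tests were chosen with earlier results of these data known. Named genes were at most the 12 largest called differences per comparison, at most 5 called rhythms per genotype, the 3 smallest p-values where no rhythm change was called, Tfeb, Mcoln1, Lamp1, Ctsd, Lipa and Npc1 always, and at most 4 genes per other list and comparison. Tpp1 and the members named at an unadjusted p in macrophages fall outside this rule and were named after their values were seen. Alternatives were other pseudocounts, no filter, no trend, all transcripts, only the libraries compared, a marker term, a replicate block, JTK_CYCLE and leaving out libraries. The replicate numbers were not taken to pair the samples. Some called genes of the other lists are not reported here.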

Additional observations from a re-analysis of the deposited data

How the results depend on the processing

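The RPKTM tables give no read counts, and no counting interval is given. Low genes such as Cd63 and Tfeb rest on an unknown number of reads. Each library also holds RNA of other cell types, and the marker levels used as terms move with genotype and time of day. No member had a changed rhythm under any alternative run.

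Between hepatocytes of RevDKO and Control, 4 members were called when only those 2 genotypes were fitted. Calls over all genes then numbered 840, as against 590 in the main fit. With the macrophage marker term, 2 members were called in RevScapTKO against RevDKO and 6 against Control, beside 349 and 813 of all genes. In macrophages, RevScapTKO against RevDKO gave 2 calls with a pseudocount of 10, the replicate block and either marker term. Calls over all genes were then 479, 574, 626 (hepatocyte markers) and 707 (macrophage markers), as against 419. RevScapTKO against Control gave 5 with the hepatocyte marker term, beside 976 of all genes as against 524. The cause of these changes was not tested. Leaving out 1 library gave 2 to 3, 8 to 10 and 12 to 15 members in the hepatocyte comparisons (RevDKO minus Control, RevScapTKO minus RevDKO, RevScapTKO minus Control). In macrophages it gave 0 to 0, 1 to 2 (2 without RevDKO ZT4 replicate 1, RevScapTKO ZT4 replicate 1 or RevScapTKO ZT22 replicate 1) and 2 to 5 (5 without RevScapTKO ZT10 replicate 1).

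Members with a rhythm in Control hepatocytes numbered 2 with JTK_CYCLE on the series entered once (571 of all genes) and 0 with the macrophage marker term (337). Without 1 library they numbered 2 to 6 (3 or fewer without ZT4 replicate 2, ZT16 replicate 2 or ZT16 replicate 3). In RevDKO hepatocytes they numbered 0 with no filter (283 of all genes), JTK_CYCLE once (498) or the marker term (168). They numbered 2 with the replicate block (667), 3 with only its 12 libraries (685) and 5 with the series entered 2 times (3279). Without 1 library they numbered 0 to 1 (0 without ZT4 replicate 2, ZT10 replicate 2, ZT16 replicate 1, ZT16 replicate 3 or ZT22 replicate 2). In RevScapTKO hepatocytes they numbered 0 with no filter (20 of all genes), no trend (45) or JTK_CYCLE once (193). With only its 12 libraries they numbered 0 too, where 0 of all genes were called. They numbered 3 with the series entered 2 times (2147) and 0 to 2 without 1 library. ScapKO hepatocytes gave 0 with the replicate block (184 of all genes) or no trend (63). They gave 2 with the series entered 2 times (1993) and 0 to 2 without 1 library. In macrophages the series entered 2 times gave 4, 10, 2 and 6 members in Control, RevDKO, RevScapTKO and ScapKO. Calls over all genes there numbered 2056, 3014, 1596 and 2435. A repeat of each series is no added replicate.

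Differences that changed sign were near 0 or changed with a marker term. In hepatocytes with the macrophage marker term these were Grn (-0.027) and Lamp1 (-0.077) in RevScapTKO minus RevDKO, and Ctss (-0.094), Psap (-0.050), Man2b1 (-0.11) and Lipa (-0.087) in RevScapTKO minus Control. In macrophages they were Ctsd (0.094 and 0.13) and Lipa (0.00142) with the macrophage marker term, Ctsd (-0.079) with the hepatocyte marker term, Lipa (0.018) without the libraries with high Alb, and Tfeb (-0.00137 with a pseudocount of 10, -0.073 without those libraries). Without 1 library, hepatocyte differences ran from -0.022 to 0.070 for Mcoln1, -0.018 to 0.073 for Lipa and -0.14 to 0.071 for Npc1 (RevDKO minus Control), -0.12 to 0.22 for Lamp1, -0.047 to 0.028 for Lipa and -0.17 to 0.012 for Npc1 (RevScapTKO minus RevDKO), and -0.035 to 0.057 for Lipa (RevScapTKO minus Control). In macrophages they ran from -0.26 to 0.044 for Mcoln1 (RevDKO minus Control), -0.050 to 0.28 for Ctsd, -0.20 to 0.068 for Lipa and -0.12 to 0.19 for Mcoln1 (RevScapTKO minus RevDKO), and -0.19 to 0.025 for Mcoln1, -0.20 to 0.014 for Npc1 and -0.13 to 0.11 for Tfeb (RevScapTKO minus Control).

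The replicate block, in which libraries with the same number were paired, gave 3, 9 and 14 called members in hepatocytes and 0, 2 and 4 in macrophages. Correlations were taken between genotypes at the same time point, on what was left of each library after subtracting its group mean. For same-numbered libraries their median was 0.0484 in hepatocytes (-0.145 to 0.280) and 0.0877 in macrophages (-0.199 to 0.372). For unlike numbers the medians were -0.029 and -0.046. What is left of the 3 libraries of a group sums to 0, so the values for like and unlike numbers are not independent. They do not describe how alike whole libraries were. The numbers were taken as names only, and whether same-numbered libraries share a batch was not tested.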
